A study of Homo sapiens with 8 samples.

Results

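TBRG1, the gene of NIAM (nuclear interactor of ARF and MDM2), was examined together with 7 genes that regulate p53 or are switched on by it: MDM2, MDM4, CDKN2A, PPM1D, CDKN1A, SESN1 and GADD45A. All probes whose transcript accession belongs to these 8 genes were taken, whatever their values. They are 8 of the 16551 genes named on the array and have 13 probes, of which 11 passed the filters described below. The cells were KM-H2, an established Hodgkin lymphoma line with abundant miR-155. All were transduced with the retroviral vector pMSCV-PIG and sorted for its GFP. The EV population carried the empty vector, and the miR-155-sp population (called sponge cells) a miR-155 sponge. A sponge is a transcript with repeated binding sites meant to capture the miRNA. The study reports only a mild loss of miR-155 targets from the Argonaute-bound RNA of its Hodgkin sponge cells. It proposes that the sponge left part of the abundant miR-155 free. From each population total RNA (T) and RNA immunoprecipitated with anti-Argonaute 2 antibody (Ago2-IP) were hybridized to 2-color arrays.

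Each of these 4 RNA samples was labelled once with Cy3 and once with Cy5. These labellings are technical repeats of 1 RNA, and a group thus counts as 1 sample. Groups could not be tested against each other, nothing below was checked in a replicate, and the values of the dye orientations show the technical spread alone. An orientation is named by the dye of its IP, T having the other dye, and values are given for IP in Cy5, then for IP in Cy3. The sponge and the EV cells are 1 transduced and sorted population each.

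P53 is a transcription factor that halts the cell cycle or starts cell death after damage. MDM2 marks p53 for degradation, MDM4 (MDMX) blocks its activity, and ARF, a product of the CDKN2A locus, inhibits MDM2. NIAM binds ARF and MDM2 and restrains growth, and PPM1D (WIP1) is a phosphatase that ends p53 signaling. CDKN1A (p21, a cyclin-dependent kinase inhibitor), SESN1 (sestrin 1, a regulator of stress and mTOR signaling) and GADD45A (a stress-induced growth arrest gene) are known p53 target genes, as are MDM2 and PPM1D. A miRNA guides Ago2 to mRNAs that pair with its seed. An mRNA bound by Ago2 more than most thus tends to give more signal in the IP than in T. Signal in the IP no higher than in T does not show that an mRNA is unbound.

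The miRNA that the sponge was made to capture is miR-155-5p. Whether the TBRG1 values below depend on it was not tested. Its mature sequence from RefSeq is given 5′ to 3′ with the seed, bases 2 to 8, in capitals (GRCh38.p14, chr21:25573983-25574006, plus strand).
hsa-miR-155-5p: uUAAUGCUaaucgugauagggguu
The 8-base site that pairs with it reads AGCATTAA on the mRNA, and its core of 6 bases GCATTA. Of 2370 mature human miRNAs in the table used, 1 has this seed, miR-155-5p itself.

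The labelled cell line was checked against marker genes. The 10 probes of 8 Hodgkin line markers, among them TNFRSF8 (CD30) and MIR155HG (the miR-155 host gene), were well above background in all 8 channels. Of the markers of other cells, EPCAM and ALB (epithelium, liver) were well above background in 0 and 1 channels, HBA1 in 3, the CD3E probes in 0 and 4 and CD14 in 6. Cy3 channels had 58.9% to 61.9% of gene spots well above background, and Cy5 channels 38.8% to 43.4%. To be retained, a probe had to be well above background in 4 channels or more and its labellings of any sample to differ by less than 2-fold. This held for 17912 of 41000 probes (43.7%). Signals are log2 values after quantile normalization over the 8 channels, with a median of 9.37 over the retained probes in EV total RNA, and IP/T is relative to all probes of the array.

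TBRG1 lies at chr11:124622864-124635926 (GRCh38.p14). Both of its probes, A_23_P98463 and A_24_P21752, are annotated with the same accession, NM_032811. The study describes a probe specific for the protein-coding NIAM transcript, which holds a miR-155 site, and another that also detects a non-coding isoform. The files used here do not tie these descriptions to probe names or give probe positions.

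The 2 TBRG1 probes gave different results. In EV cells the log2 signal of A_23_P98463 was 6.98 (Cy3) and 6.99 (Cy5) in T and 9.90 and 9.34 in the IP. In sponge cells it was 6.98 and 6.97 in T and 9.00 and 8.75 in the IP. In each dye the IP was thus above T in both populations, and sponge IP was below EV IP, while the T values almost coincided. The share of all retained probes with such an order was not counted. The signal in T was low, at percentile 13.5 of the retained probes in the EV cells, and the Cy5 labelling of sponge T was not well above background. Fewer transcripts per cell and fewer cells that express a gene cannot be told apart in such bulk RNA.

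For A_23_P98463 the orientations gave a log2 IP/T of 2.36 and 2.91 in the EV cells, which put its mean of 2.63 at percentile 96.9 of the retained probes. In sponge cells the orientations gave 1.76 and 2.04, with a mean of 1.90 at percentile 93.0. IP/T was thus lower in sponge cells in both orientations, as it was for 30.3% of all retained probes. The difference, sponge minus EV, was -0.73 with -0.59 and -0.87 in the orientations. It lay in the IP (-0.75) rather than in T (-0.01), but the low T signal depended on the processing. The difference in T was -0.08 with a common median, and -0.04 (loess) or -0.19 (quantile) with normexp. A change of IP/T at least as low as -0.73 was seen for 355 retained probes (1.98%), and the median absolute change of IP/T was 0.17. The size of the change for A_23_P98463 depended on the background correction. With normexp it was -0.49 (loess) or -0.27 (quantile). Log2 IP/T was then 1.15 or 1.25 in the EV cells and 0.67 or 0.98, under an IP/T of 2, in the sponge cells.

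Probe A_24_P21752 was brighter in T and was not enriched. Its log2 signal in the EV cells was 8.99 (Cy3) and 9.10 (Cy5) in T and 8.91 and 8.98 in the IP. In sponge cells it was 9.03 and 8.79 in T and 8.73 and 8.66 in the IP. Log2 IP/T had a mean of -0.10 in the EV cells and -0.21 in sponge cells. The difference of -0.11 was -0.35 and 0.13 in the orientations, so its direction was not settled by these arrays.

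The ratio of the TBRG1 probe signals, A_24_P21752 over A_23_P98463, was 4.16 in EV T and 3.82 in sponge T, but 0.627 in EV IP and 0.883 in sponge IP. Signals of different probes are not levels of transcripts, so it is the shift of this ratio between T and IP, not its value, that compares the samples. Among 2766 genes with at least 2 retained probes the median gap between probes in log2 IP/T in the EV cells was 0.34. The gap for TBRG1 was 2.73 (6.64-fold), and 22 genes (0.795%), TBRG1 included, had a gap as large. For MDM4 the gap was 0.56 and for CDKN1A 0.01. With normexp the TBRG1 gap was smaller. Log2 IP/T in the EV cells was then 1.15 (loess) or 1.25 (quantile) for A_23_P98463 and 0.11 or -0.02 for A_24_P21752. The share of genes with such a gap was not computed with normexp.

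**Figure D1:**
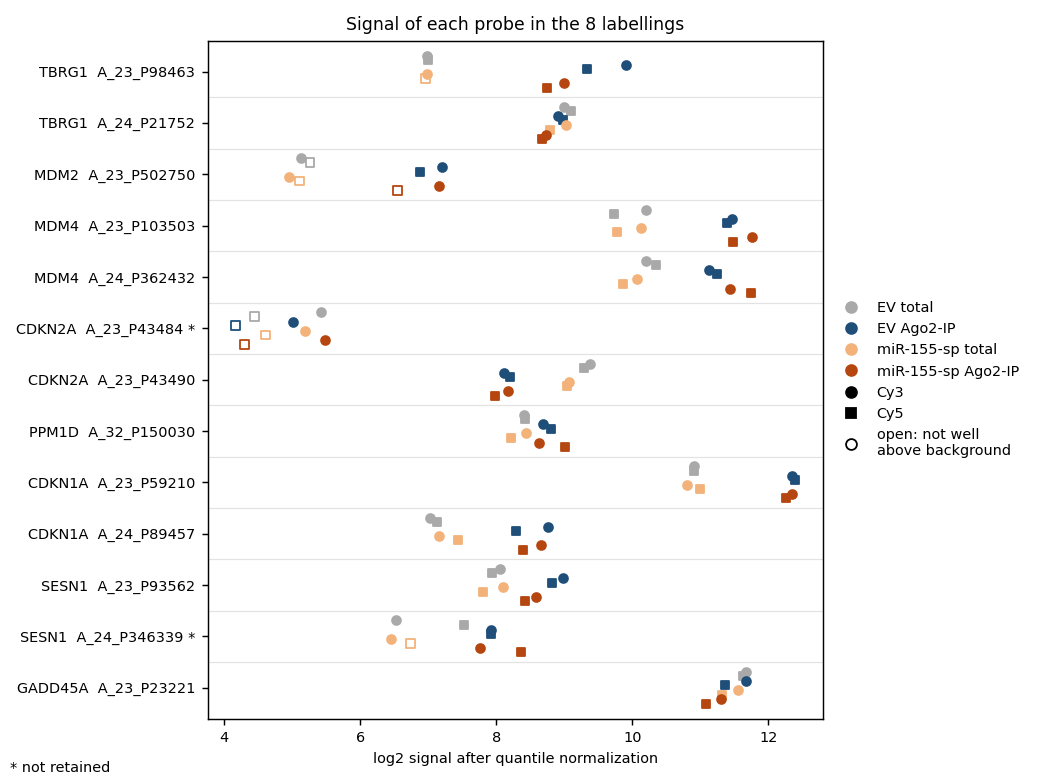
Log2 signal after quantile normalization (x axis) of the 13 probes in the 8 labellings, with circles for Cy3, squares for Cy5, a color for each RNA sample and open symbols for labellings not well above background. TBRG1 A_23_P98463 lies near 7 in all T labellings and between 8.75 and 9.90 in the IP, whereas the labellings of A_24_P21752 stay between 8.66 and 9.10. Asterisks mark the probes that were not retained.

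MDM2 (chr12:68808172-68850686), the p53 ubiquitin ligase, was dim in T and reached an IP/T of 2 only without normexp. Its probe A_23_P502750 had a log2 signal of 5.12 (Cy3) and 5.26 (Cy5) in EV T and 7.21 and 6.88 in EV IP. In sponge cells it was 4.96 and 5.11 in T and 7.16 and 6.55 in the IP. Both T values in Cy5 and the sponge IP in Cy5 were not well above background. This is among the dimmest of the retained probes, at percentile 1.59 in EV T. Log2 IP/T was 1.85 (1.76 and 1.94) in the EV cells and 1.82 (1.60 and 2.05) in sponge cells. The difference of -0.03 had opposite signs in the orientations (-0.16 and 0.11). With normexp log2 IP/T was 0.29 (loess) or 0.49 (quantile) in the EV and 0.21 or 0.42 in the sponge cells, under an IP/T of 2. The share of all probes at that limit in the EV cells also fell with normexp, from 14.8% to 5.99% (loess) or 6.64% (quantile). The probe is spotted 10 times on each array. Before quantile normalization the SD of the log2 signal over its spots was 0.07 to 0.75, widest in the Cy5 labelling of sponge IP. This is the spread of single spots, not of the means compared above.

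MDM4 (chr1:204516406-204558120) was enriched by both of its probes in sponge cells and by 1 of them in the EV cells. A_24_P362432 had a log2 signal of 10.20 (Cy3) and 10.35 (Cy5) in EV T and 11.12 and 11.24 in EV IP. In sponge cells the values were 10.07 and 9.86 in T and 11.44 and 11.75 in the IP. In both dyes T was thus lower in sponge cells, as for 32.9% of all retained probes, and the IP was higher. The share for the IP alone was not counted. Its log2 IP/T was 0.91 (1.04 and 0.78) in the EV cells and 1.63 (1.68 and 1.58) in sponge cells. The difference of 0.72 (0.64 and 0.80) was the largest rise of the retained probes of the 8 genes, and 401 retained probes of the array (2.24%) changed upward by as much. It kept its sign in all 8 alternatives run, which reuse the same labellings, and lay between 0.45 and 1.00.

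The other MDM4 probe, A_23_P103503, had a log2 signal of 10.20 (Cy3) and 9.73 (Cy5) in EV T and 11.46 and 11.39 in EV IP. The sponge values were 10.13 and 9.78 in T and 11.76 and 11.49 in the IP. It thus showed a smaller shift in the same direction, from a log2 IP/T of 1.46 (1.20 and 1.73) in the EV cells to 1.67 (1.36 and 1.98) in sponge cells. The orientations of the populations overlapped for this probe. Its difference of 0.21 (0.16 and 0.25) fell to -0.01 with normexp and loess.

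CDKN2A (chr9:21967752-21995324) encodes the kinase inhibitor p16INK4a and, in another reading frame, ARF. Both of its probes carry the accession NM_058197, and which product they report was not analysed here. CDKN2A was the only one of the 8 genes with a retained probe that was depleted from the IP, that is with an IP/T of 0.5 or less, and with normexp it did not reach this limit. For A_23_P43490 the log2 signal was 9.38 (Cy3) and 9.29 (Cy5) in EV T and 8.11 and 8.20 in EV IP, and 9.07 and 9.04 in sponge T and 8.17 and 7.98 in sponge IP. T exceeded the IP in every labelling. IP/T was 0.441 in the EV cells and 0.507 in sponge cells, with log2 values of -1.18 in both EV orientations and of -1.09 and -0.87 in sponge cells. With normexp log2 IP/T was -0.44 (loess) or -0.58 (quantile) in the EV and -0.19 or -0.36 in the sponge cells. The difference was 0.20 (0.09 and 0.31), and T was lower in sponge cells in both dyes, with log2 differences of -0.25 (Cy5) and -0.31 (Cy3).

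The remaining CDKN2A probe, A_23_P43484, was well above background in the 4 Cy3 channels and in none of the Cy5 channels. It differed 2.28-fold between labellings and was not retained. Its log2 IP/T in the EV cells was -1.25 and 0.57 in the orientations, so the probe gives no direction. The difference between the populations was 0.34, and -0.03 in the Cy5 labellings alone. 

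PPM1D (chr17:60600193-60666280) was not enriched and differed little. The log2 signal of A_32_P150030 was 8.40 (Cy3) and 8.42 (Cy5) in EV T, 8.68 and 8.80 in EV IP, 8.44 and 8.21 in sponge T, and 8.63 and 9.01 in sponge IP. Log2 IP/T was 0.33 (0.39 and 0.26) in the EV cells and 0.49 (0.57 and 0.41) in sponge cells. The difference was 0.16 in the mean but -0.09 in the Cy3 labellings alone.

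**Figure D2:**
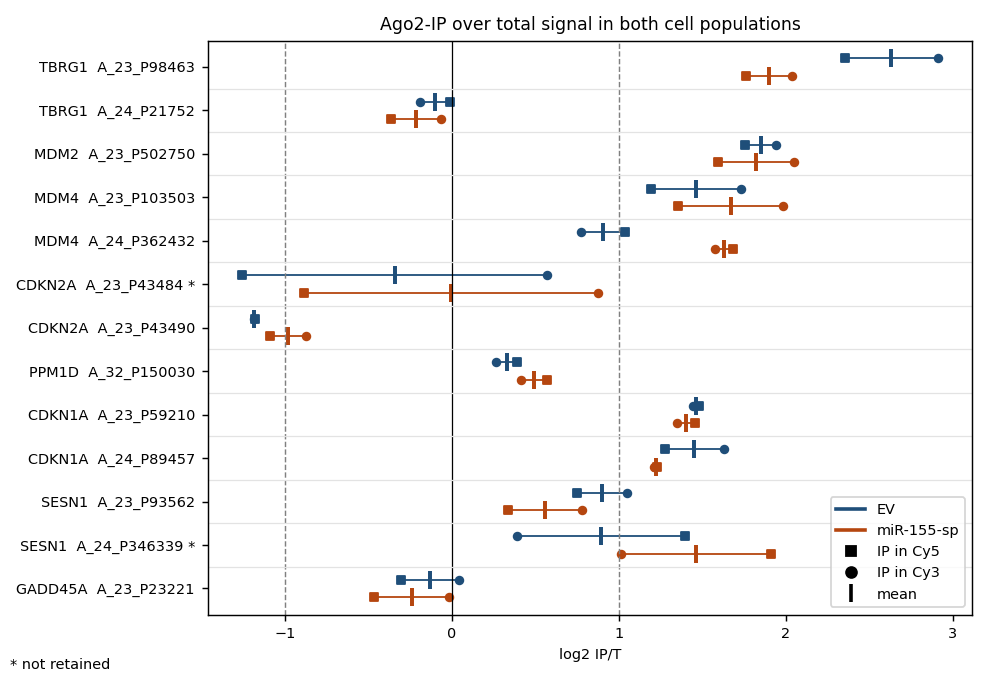
Log2 IP/T (x axis) of the 13 probes in EV (blue) and sponge (miR-155-sp, orange) cells, with a square for IP in Cy5, a circle for IP in Cy3 and a bar for their mean, and dashed lines at IP/T of 2 and 0.5. TBRG1 A_23_P98463 runs from 2.36 to 2.91 in EV and from 1.76 to 2.04 in sponge cells. CDKN2A A_23_P43490 lies to the left, at a log2 IP/T of -1.18 in the EV cells. Asterisks mark the probes that were not retained.

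Of the p53 target genes, CDKN1A (chr6:36676463-36687332) has 2 probes, annotated NM_000389 and NM_078467. The brighter was enriched under each background correction, the dimmer only without normexp. A_23_P59210 had a log2 signal of 10.91 (Cy3) and 10.90 (Cy5) in EV T and 12.35 and 12.39 in EV IP. In sponge cells the values were 10.81 and 10.99 in T and 12.34 and 12.26 in the IP. It was among the brighter probes, at percentile 71.5 in EV T, and its SD over 10 spots was 0.04 to 0.22. IP/T was 2.76 in EV and 2.64 in sponge cells. With normexp its log2 IP/T stayed between 1.19 and 1.45. The log2 difference of -0.06 (-0.03 and -0.10) was 0.09 in the Cy3 labellings alone.

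The dimmer CDKN1A probe, A_24_P89457, had a log2 signal of 7.02 (Cy3) and 7.13 (Cy5) in EV T and 8.76 and 8.30 in EV IP. The sponge values were 7.16 and 7.44 in T and 8.65 and 8.39 in the IP, so both T labellings were higher in sponge cells. It gave an IP/T of 2.74 in the EV cells, within 1.01-fold of the other probe, and 2.33 in sponge cells. With normexp log2 IP/T was 0.55 (loess) or 0.62 (quantile) in the EV and 0.45 or 0.54 in the sponge cells, and in the Cy5 labellings alone 0.95 in the sponge cells, all under an IP/T of 2. Its T signal was the only one of the retained probes of the 8 genes that was higher in sponge cells in both labellings, by 0.14 and 0.31. The log2 difference in IP/T was -0.23 (-0.04 and -0.42).

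SESN1 (chr6:108984309-109094846) has a retained probe, A_23_P93562, with a log2 signal of 8.06 (Cy3) and 7.93 (Cy5) in EV T and 8.98 and 8.81 in EV IP. In sponge cells it was 8.09 and 7.81 in T and 8.59 and 8.43 in the IP. The sponge IP was thus lower in both labellings, with differences of -0.40 (Cy3) and -0.38 (Cy5), and T nearly level. Log2 IP/T was 0.90 (0.75 and 1.05) in the EV cells and 0.56 (0.34 and 0.78) in sponge cells. The difference of -0.34 (-0.42 and -0.27) kept its sign in all 8 alternatives run, which reuse the same labellings. It was at percentile 10.6 of the retained probes. The other probe, A_24_P346339, missed the limit of 2-fold between labellings at 2.002-fold and gave a difference of the opposite sign, 0.57, with -0.08 in the Cy3 labellings alone. The probes of SESN1 thus disagreed.

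GADD45A (chr1:67685201-67688334) was bright and not enriched. A_23_P23221 had a log2 signal of 11.67 (Cy3) and 11.62 (Cy5) in EV T and 11.67 and 11.36 in EV IP. The sponge values were 11.55 and 11.31 in T and 11.30 and 11.08 in the IP, below those of EV cells in each dye. The differences were -0.12 (Cy3) and -0.31 (Cy5) in T and -0.37 and -0.28 in the IP. IP/T was 0.913 in the EV cells and 0.846 in sponge cells. The log2 difference in IP/T of -0.11 was 0.03 in the Cy5 labellings alone.

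Counted together, 5 of the 11 retained probes were enriched to an IP/T of 2 or more in the EV cells, where the share of all retained probes was 14.8%. They were TBRG1 A_23_P98463, MDM2, MDM4 A_23_P103503 and both CDKN1A probes. In sponge cells 6 probes did, MDM4 A_24_P362432 being the addition, against 15.6%. Depletion to 0.5 or below was seen for 1 probe (CDKN2A) in the EV cells, where the share of all was 12.9%, and for 0 in sponge cells (14.1%). With normexp 3 probes reached an IP/T of 2 in each population, where the share of all probes was 5.99% (loess) or 6.64% (quantile) in the EV and 5.47% or 6.83% in the sponge cells. MDM2 and CDKN1A A_24_P89457 were lost in both populations and TBRG1 A_23_P98463 in the sponge cells. With all 8 channels required well above background, 3 probes did in the EV cells, beside 12.7% of all.

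IP/T was lower in sponge cells in both orientations for 5 of the 11 probes (30.3% of all retained probes) and higher for 4 (30.6%). T was lower in both labellings for 4 probes (32.9%) and higher for 1 (32.4%). The median difference of the 11 probes in IP/T was -0.06, beside -0.002 for all retained probes. None of the 11 probes differed 2-fold in IP/T in either direction, a size seen for 259 of all retained probes. When channels were scaled to a common median and not quantile-normalized, 62.5% of the retained probes with the same sign in both orientations were higher in sponge cells, instead of 50.2%, and 3 of the 11 probes were lower in both orientations.

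**Figure D3:**
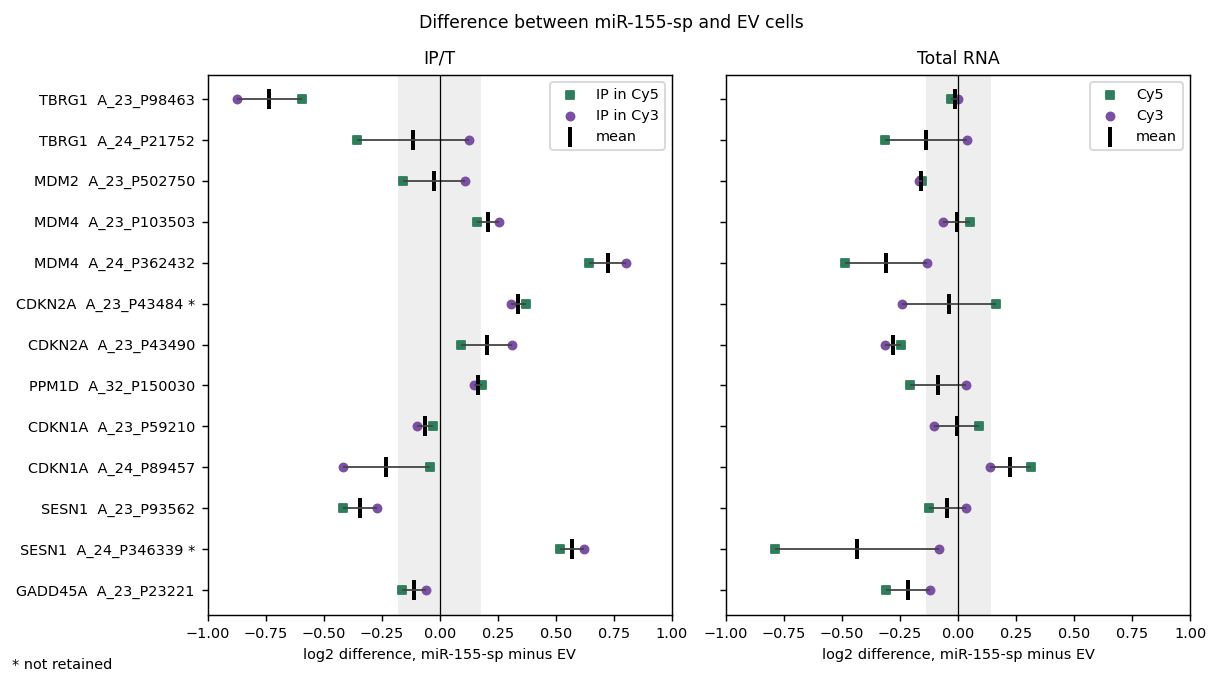
Log2 difference between miR-155-sp and EV cells (x axis) in IP/T (left) and in total RNA (right) for the 13 probes, with a square and a circle for the dye orientations or labellings, a bar for their mean and a grey band for the median absolute difference of all retained probes (0.17 and 0.14). TBRG1 A_23_P98463 (-0.73) and MDM4 A_24_P362432 (0.72) lie farthest from 0 in IP/T among the retained probes, and the former is close to 0 in total RNA. Asterisks mark the probes that were not retained.

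Other genes of the pathway were taken from lists. Among 28 further p53 regulators, 40 probes of 26 genes were retained. Their median log2 IP/T in the EV cells was -0.10, beside -0.24 for all retained probes, and 2 probes reached an IP/T of 2 (14.8% of all retained probes did). These were ATR (3.07 in EV and 3.26 in sponge cells), a DNA damage kinase, and RCHY1 (2.27 and 2.15), a p53 ubiquitin ligase, with USP10 (1.92 and 1.88) just under. KAT5 (TIP60), an acetyltransferase, had the lowest IP/T in the EV cells, 0.390, followed by TP53RK, a p53 kinase, with 0.442. USP7, a deubiquitinase of MDM2 and p53, was at 0.617 and 0.585, and the retained ATM probe, well above background in 4 channels, at 1.14 and 1.10. IP/T differed between the populations by -0.40 to 0.43, being lower in both orientations for 10 probes and higher for 10, beside 30.3% and 30.6% of all.

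Among 31 further p53 target genes on the array, 29 probes of 23 genes were retained, and 9 probes had an IP/T of 2 or more in each population, beside 14.8% of all retained probes in the EV and 15.6% in the sponge cells. The highest were BTG2, an antiproliferative gene (35.6 in EV and 37.3 in sponge cells), FAS, a death receptor (13.9 and 15.0), and SESN3, a relative of SESN1 (6.38 and 8.17). The lowest were the apoptosis genes BAX (0.239 and 0.281) and BBC3 (PUMA, 0.275 and 0.326), and SFN (14-3-3 sigma, 0.322 and 0.378). The probes of BBC3 disagreed, another having an IP/T of 1.43 in the EV cells. IP/T was lower in both orientations for 8 of the 29 probes and higher for 12, beside 30.3% and 30.6% of all. Thus the p53 targets covered the whole range from enriched to depleted, as the 8 genes did from TBRG1 to CDKN2A.

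Of 17 retained probes of cyclin-dependent kinases, cyclins and inhibitors, 10 reached an IP/T of 2 in the EV cells and 9 in sponge cells, beside 14.8% and 15.6% of all. CDKN1B (p27), a relative of CDKN1A, had an IP/T of 18.6 and 6.67 by its 2 probes in the EV cells and 16.4 and 8.73 in sponge cells. CCNE1 (cyclin E1) followed with 7.74 and 8.18. The lowest were CDKN2D (0.528 and 0.474), CDK2 (0.645 and 0.644) and CDK4 (0.765 and 0.723). Without normexp, CDKN1B and CDKN1A were enriched by both of their probes, whereas CDKN2D, like the retained probe of CDKN2A, had less signal in the IP than in T.

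Genes described as links between miR-155 and p53 were highly enriched where they could be measured. SOCS1, a cytokine signaling inhibitor, had an IP/T of 19.2 and 9.24 by its 2 probes in the EV cells and of 19.6 and 10.7 in sponge cells. WEE1, a kinase that restrains entry into mitosis, had 17.7 in EV and 13.0 in sponge cells, a log2 difference of -0.44 (-0.57 and -0.31). TP53INP1, a p53-induced gene, was not retained. Neither labelling of EV T was well above background, so its IP/T in the EV cells is at least 4.16, that is its mean IP signal over the higher of the T signal and the lowest signal well above background in each channel. In sponge cells IP/T was 2.17, and with 4 of the 8 channels well above background these values are not compared.

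**Figure D4:**
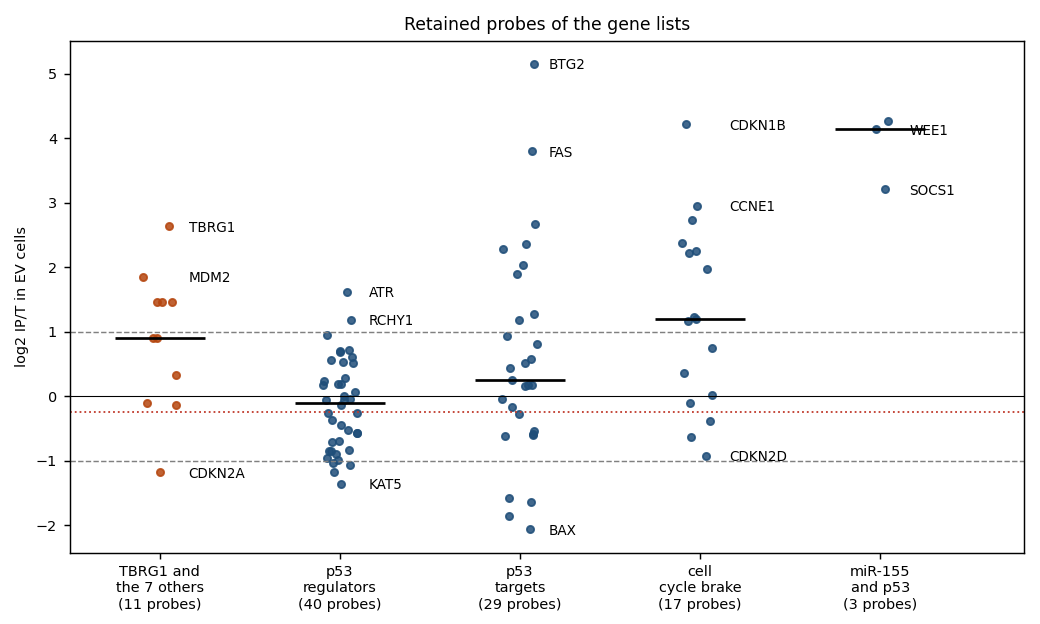
Log2 IP/T in the EV cells (y axis) of every retained probe of the 8 genes (orange) and of the 4 other lists (blue), with a black line at each median, dashed lines at IP/T of 2 and 0.5 and a red dotted line at the median of all retained probes (-0.24). The p53 regulators lie around that line with 2 probes above an IP/T of 2, and the 8 genes, the p53 targets and the cell cycle genes reach higher.

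The retained probes of other named genes whose log2 IP/T over the 4 arrays was most like that of TBRG1 A_23_P98463 were those of DHRS7B, ZCCHC3, SLC25A44, PDE4B and FAR1, at Euclidean distances of 0.40 to 0.48. Their differences between the populations were -0.34 (SLC25A44) to -0.92 (PDE4B). Most like A_24_P21752 were DONSON, NAB2, KYNU, TTC7A and YWHAE, at 0.04 to 0.13. A_24_P21752 lay near the middle of the retained probes, at percentile 56.1 of IP/T in the EV cells.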

How the data were processed

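Per the file headers, the authors' spot intensity values came from Agilent Feature Extraction 10.7.3.1 (10.5.1.1 in the submitters' processing notes), already background-subtracted and dye-normalized. An array's output was deposited under both of its samples. Each sample was read from the channel of its own dye, with the scanner's flag columns (other values). The authors also deposited a table of log2 values for 16065 probes, which differed from those computed here by a median of 0.0006. It holds 10 of the 13 probes, without MDM2 A_23_P502750, CDKN2A A_23_P43484 and SESN1 A_24_P346339.

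Control spots and 74 to 100 outlier spots per channel were dropped. No gene spot was saturated. Spots of a probe were averaged as log2 processed signals and quantile-normalized over 8 channels. Filters and the 2-fold limits followed the study's methods. The log2 IP/T is the mean IP minus the mean T of both labellings. Ratios of dim probes are imprecise, and any overall difference between fractions is lost in the normalization. The number of arrays limits the precision.

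Accessions were matched to a RefSeq gene table of GRCh38.p14, which named 23958 of 41000 probes. The arrays were designed on hg18, so gene coordinates only are given. Named genes are all probes of the 8 genes, KAT5, USP7, ATM, TP53INP1, SOCS1, WEE1, the 3 highest and 3 lowest of each list in EV IP/T, and the 5 probes most like each TBRG1 probe. Some genes under this rule are not reported here. Other names were chosen after their values were seen. The genes and lists were chosen with earlier results of these data known. Counts past a fixed ratio replace tests, as each group is 1 sample. Alternatives were normexp (offset 50, with loess or quantile; limma 3.58.1 in R 4.3.3), a common median, the deposited log2 values, other filters, single labellings and orientations, and gene means. The rest was run in Python 3.11.15 and tested on simulated data.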

Additional observations from a re-analysis of the deposited data

Results flagged for a closer look

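The 10 spike-in controls, which are no genes of the cells and entered no comparison above, had, before quantile normalization, a median log2 IP/T of 0.13 in the EV and of 1.55 in the sponge cells. Their median difference was 1.58 (1.23 to 1.68), and all 10 were higher in the sponge cells in either dye orientation. The median log2 IP/T of the gene probes on the same scale was -0.18 and -0.19. The part of this difference in the values of TBRG1 and the other genes was not tested.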

How the results depend on the processing

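No paired analysis was possible because each group is 1 RNA, and the labels' replicate numbers are its Cy3 and Cy5 labellings. TBRG1 A_23_P98463 kept its lower IP/T in sponge cells in all 8 alternatives, between -0.90 and -0.27, as did SESN1 A_23_P93562 and CDKN1A A_24_P89457, and MDM4 A_24_P362432 and CDKN2A A_23_P43490 their higher IP/T. These alternatives reuse the same labellings and are not independent checks, and the deposited values were nearly those computed here. With normexp and loess, log2 IP/T of A_23_P98463 was 1.15 in EV and 0.67 in sponge cells (difference -0.49), that of A_24_P21752 was 0.11 and 0.061, and with normexp and quantile the former had 1.25 and 0.98 (difference -0.27). Normexp also put MDM2 and CDKN1A A_24_P89457 under an IP/T of 2 in both populations and CDKN2A A_23_P43490 above 0.5. Member probes with an IP/T of at least 2 numbered 3 in place of 5 in EV cells (both normexp settings, and all 8 channels well above background) and 3 in place of 6 in sponge cells (both normexp settings, and 3 genes when probes were averaged). Probes lower in both orientations numbered 3 in place of 5 with a common median. Of the p53 regulators, 1 (common median, or normexp with loess), 0 (normexp with quantile) and 4 (IP in Cy3 alone) reached an IP/T of 2 in place of 2. The p53 targets' median log2 difference of 0.07 was 0.17 with a common median, 0.0087 and 0.034 with normexp (loess, quantile), 0.011 with IP in Cy3 alone and 0.0037 to 0.0041 in either labelling alone. Directions turned for MDM2 in T with normexp (0.017 and 0.0038), for MDM4 A_23_P103503 with normexp and loess (-0.0062), and for CDKN1A A_23_P59210 with a common median (0.026). In Cy3 labellings alone they turned for CDKN1A A_23_P59210 (0.094), PPM1D (-0.092) and SESN1 A_24_P346339 (-0.085), and in Cy5 labellings alone for CDKN2A A_23_P43484 (-0.033) and GADD45A (0.030). Of the other values, 242 moved by less than the spread and 79 by more. The spread is the SD between dye orientations, or between labellings for T. A direction counts as turned only where both orientations or labellings had the same sign and the mean exceeded the spread. The causes were not tested. Low signal over background limits MDM2, CDKN2A A_23_P43484 and TBRG1 A_23_P98463 in T.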

Other observations

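Among the cell cycle genes, members named here after their values were seen gave like results by all their retained probes. RB1, the retinoblastoma protein that holds back cell cycle entry, had an IP/T of 3.94 and 4.78 in EV cells and of 4.54 and 5.50 in sponge cells. CDK6, a kinase that inactivates it, had 4.66 and 5.21 in EV cells and 4.32 and 5.44 in sponge cells. Among p53 targets, PMAIP1 (NOXA, an apoptosis gene) had 5.13 and 5.54, and the death receptor gene TNFRSF10B had 2.42 and 4.12 by its 2 probes in EV cells and 2.56 and 4.42 in sponge cells.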
